A study of Homo sapiens with 6 samples.

Results

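Regulators of G protein signalling (RGS proteins) and the G alpha 13 pathway that keeps germinal centre B cells in place were examined in BL-2, an established Burkitt lymphoma cell line, left untreated or given lipopolysaccharide (LPS), an outer membrane component of Gram-negative bacteria, for 6 h. The members were 9 genes, RGS18, RGS1, RGS2, RGS10, RGS13, RGS16, RGS19, GNA13 and S1PR2, of 19775 genes measured. They were taken as every probe set whose annotation gave exactly 1 gene symbol equal to a member, which gave 20 of 54613 probe sets, and 0 further probe sets named a member beside another gene. The genes were chosen by name after their differences between LPS and control cells had been seen, with RGS18 among the largest falls. All differences of the members between LPS and control are therefore given as a description, with a standard error and no p-value.

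The data are 6 Affymetrix arrays of total RNA, 3 from control and 3 from LPS cells, on a log2 scale whose base is inferred from the range of the values. Control cells received no treatment. The sources used here do not give the LPS dose, and a time is recorded for the LPS cells only. All samples are of this cell line. Nothing says whether the cultures were separate, so p-values cover the spread of these samples alone, and that spread may be technical. Levels of different probe sets are not comparable, since each has its own response to RNA.

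An RGS protein speeds the hydrolysis of GTP on an active G alpha subunit and so shortens the signal of the receptor that activated it. In B cells the Gi-coupled chemokine receptors that drive migration are restrained in this way. G alpha 13, encoded by GNA13, acts the other way on movement: the receptors S1PR2 and P2RY8 activate it, and its signal opposes migration, which confines B cells to the germinal centre. Loss of this arm is a known event in lymphomas of germinal centre B cells.

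Of the members, 4 are neighbours. In the RefSeq gene table of assembly GRCh38.p14, RGS18, RGS21, RGS1, RGS13 and RGS2 follow each other among the protein-coding genes of chromosome 1. RGS21 had no probe set with its symbol alone. The other 4, RGS18, RGS1, RGS13 and RGS2, all had lower means in LPS than in control cells by their brightest probe sets. Of all genes 49.2% were below 0. The choice of members used this comparison, so nothing is read from the shared direction. Without control 2 the RGS1 difference was -0.10. Of these 4, RGS18 was called, where 0.389% of all genes were called. The groups overlapped in RGS1, RGS13 and RGS2, where 15.7% of all genes did not overlap. The 250 bases before the annotated start of each of the 4 are shown, since these are the members that lie together. They are from RefSeq, build GRCh38.p14, 5′ to 3′, with every match to a searched motif in capitals.
RGS18, chr1:192158212-192158461, + strand: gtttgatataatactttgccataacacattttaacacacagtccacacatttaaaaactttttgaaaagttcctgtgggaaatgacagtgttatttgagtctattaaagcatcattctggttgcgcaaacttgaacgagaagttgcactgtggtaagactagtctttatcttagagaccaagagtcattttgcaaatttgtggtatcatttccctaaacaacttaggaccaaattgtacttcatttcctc
RGS1, chr1:192575523-192575772, + strand: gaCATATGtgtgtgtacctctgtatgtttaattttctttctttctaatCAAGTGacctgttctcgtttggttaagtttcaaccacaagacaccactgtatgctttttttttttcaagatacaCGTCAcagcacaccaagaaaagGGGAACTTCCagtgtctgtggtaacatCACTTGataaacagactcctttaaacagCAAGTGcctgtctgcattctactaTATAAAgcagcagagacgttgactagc
RGS13, chr1:192635897-192636146, + strand: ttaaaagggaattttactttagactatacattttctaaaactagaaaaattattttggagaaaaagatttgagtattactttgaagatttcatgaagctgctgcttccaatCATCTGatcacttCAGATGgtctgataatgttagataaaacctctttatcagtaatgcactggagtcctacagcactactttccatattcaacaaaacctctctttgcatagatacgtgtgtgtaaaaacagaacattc
RGS2, chr1:192808789-192809038, + strand: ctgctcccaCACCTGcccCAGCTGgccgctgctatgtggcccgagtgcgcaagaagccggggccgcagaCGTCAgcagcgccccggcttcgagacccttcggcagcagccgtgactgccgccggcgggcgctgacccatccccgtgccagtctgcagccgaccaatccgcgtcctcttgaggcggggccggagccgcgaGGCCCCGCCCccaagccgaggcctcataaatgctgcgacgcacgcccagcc

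The motifs, searched on both strands, were the E-box CANNTG, the cyclic AMP response element TGACGTCA and its half-site TGACG, which lies within it, the AP-1 site TGANTCA, the FOX site GTAAACA, the NF-kB site (3 G, any 5 bases, 2 C) and the TATA box TATAAA. The RGS18 window held 0 matches to these motifs. The RGS1 window held 4 E-boxes, 1 response element half-site, 1 NF-kB site and 1 TATA box, whose first base lay 27 bases before the start. RGS13 held 2 E-boxes, and RGS2 held 2 E-boxes, 1 half-site and 1 NF-kB site. Of 35116 promoter windows of the same length, 61.8% held an E-box, 54.4% an NF-kB site, 21.2% a half-site and 10.7% a TATA box. The whole response element was in 1.65%, the AP-1 site in 6.57% and the FOX site in 2.98%. The windows also differed in base composition, with a GC content of 34.8% in RGS18, 39.2% in RGS1, 32.0% in RGS13 and 72.8% in RGS2. These matches describe letters in the reference sequence and no binding was measured.

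Array medians lay between 6.42 and 6.47, and the lowest value on any array was 5.46, so a probe set near 6 cannot be told from background here. The arrays fell into 2 sets by the level of 18 added hybridisation controls. Set A held control 1, LPS 1 and LPS 2, with a mean of 10.24 ± 0.045 (SD, n = 3), and set B held control 2, control 3 and LPS 3, with 10.57 ± 0.051 (SD, n = 3). B cell markers stood at control levels of 9.05 to 13.05 in the 6 measured. Markers of platelets and erythroid cells (6 measured, 5.91 to 6.98), of monocytes (6 measured, 6.00 to 6.70) and of T and NK cells (7 measured, 6.16 to 6.54) stood close to the array medians, with 0 of these 19 passing the test.

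RGS18, which acts on G alpha i and G alpha q and is known for its abundance in platelets and their precursors, was lower in LPS cells. Its 1 probe set read 8.22, 8.57 and 8.38 in controls 1 to 3 and 7.52, 7.56 and 7.53 in LPS 1 to 3. All LPS values lay below all control values, and the LPS arrays differed among themselves by less (SD 0.021, n = 3) than the controls did (SD 0.17, n = 3). The mean was 8.39 in control and 7.54 in LPS cells, a difference of -0.85 (SE 0.088), that is a level 1.81-fold higher in control cells. In bulk RNA, fewer cells that express a gene and less RNA per cell cannot be told apart. The platelet markers PF4, PPBP, GP9, GP1BA and ITGA2B stood at 6.40, 5.91, 6.98, 6.69 and 6.58 in control cells, with differences between -0.04 and 0.04. Summed over the 6 platelet and erythroid markers, the log2 values ran from 39.2 to 39.4 in controls and from 39.0 to 39.5 in LPS cells.

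RGS18 differed by -0.68 within set A and by -0.95 within set B. Leaving out each array in turn gave -0.94 to -0.76. By brightest probe set 1 of the 9 members, RGS18, was called by limma with Benjamini-Hochberg adjustment, where 0.389% of all genes were called. By probe set it was 1 of 20, against 0.264% of all probe sets. The choice of members used this comparison, so nothing is read from either count. Their median difference was -0.14 by brightest probe set, beside 0.0016 over all genes.

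**Figure D1:**
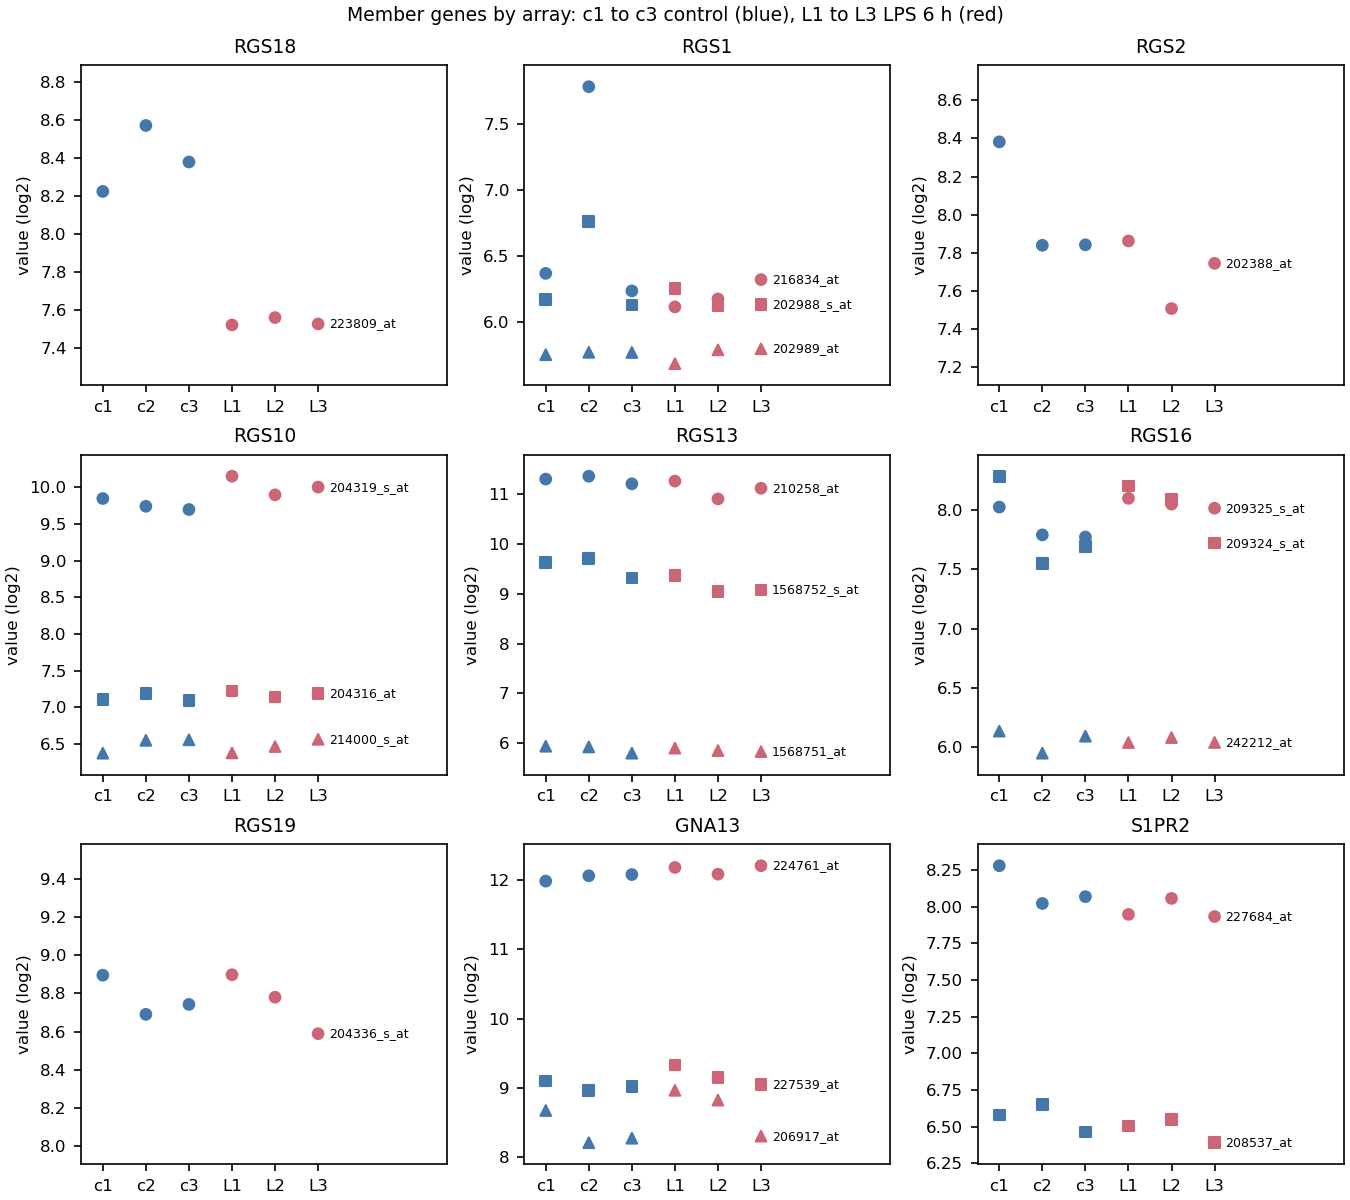
Value of each member probe set (log2, vertical axis, scaled per panel) on the 3 control arrays (c1 to c3, blue) and the 3 LPS arrays (L1 to L3, red), with a marker shape per probe set. RGS18 separates the groups, at 7.52 to 7.56 in LPS and 8.22 to 8.57 in control cells, and RGS1 is high on control 2 at 7.78.

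RGS1, induced in activated B cells and known to blunt their response to chemokines, had its level set by 1 array. The brightest of its 3 probe sets read 6.37, 7.78 and 6.24 in controls 1 to 3 and 6.12, 6.18 and 6.32 in the LPS arrays. Control 2 stood 1.41 above the next highest array, while the 5 other arrays lay close together near the array medians. The next brightest probe set also had its highest value on control 2, 6.76, with 6.12 to 6.25 on the others, and the dimmest lay between 5.69 and 5.80 throughout. Over all arrays the differences of the 3 probe sets were -0.59 (SE 0.27), -0.18 (SE 0.12) and -0.01 (SE 0.046). Without control 2 the first was -0.10 and the next 0.02, so the size of the RGS1 difference rests on that array, and for the next brightest probe set the sign too. Within set A, which does not hold control 2, they were -0.22 and 0.02.

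RGS2, which prefers G alpha q over other subunits, overlapped between the groups. It read 8.38, 7.84 and 7.84 in the controls and 7.86, 7.51 and 7.74 in the LPS arrays. Control 1 was the highest array and LPS 2 the lowest. The difference was -0.32 (SE 0.13), with -0.70 within set A and -0.10 within set B. Without control 1 it was -0.14.

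RGS13, found in germinal centre B cells and known to limit their responses to the chemokines CXCL12 and CXCL13, had 2 probe sets well above the array medians. The brightest read 11.30, 11.36 and 11.21 in the controls and 11.26, 10.90 and 11.12 in the LPS arrays. LPS 1 lay within the control range, so the groups overlapped, with a difference of -0.20 (SE 0.11). The next brightest read 9.63, 9.71 and 9.32 in the controls and 9.37, 9.04 and 9.08 in the LPS arrays. Here only LPS 1 exceeded the lowest control, and the difference was -0.39 (SE 0.12), with -0.43 within set A and -0.44 within set B. With array set as a block this probe set was called too. That made 2 of the 20 member probe sets, beside 1.34% of all probe sets in that fit. Without a block, or with a replicate block, this probe set was not called. The choice of members used this comparison, so nothing is read from that call or count. The dimmest RGS13 probe set, at 5.88 in controls, differed by -0.03. Without LPS 2 the brightest probe set gave -0.10.

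Most germinal centre and B cell markers measured had lower means beside RGS13 and RGS18. Of 7 germinal centre markers listed, 6 were measured, and all 6 were below 0 with a median of -0.31, beside a median of 0.0016 over all genes. Their summed log2 values ran from 58.6 to 58.9 in controls and from 57.0 to 57.4 in LPS cells, without overlap. By limma 0 of the 6 passed and 4 had an unadjusted p under 0.05, beside 9.56% of all genes, and with array set as a block 3 fell (CD38, GCSAM and BCL6), where 2.02% of all genes were called. Of the 6 B cell markers measured 5 were below 0, with a median of -0.19. The exception was PAX5, which differed by 0.31 with overlap between the groups (limma adjusted p = 0.648). Summed over the 6 B cell markers, the log2 values ran from 62.94 to 63.70 in controls and from 62.28 to 62.90 in LPS cells, also without overlap. By limma 0 of these 6 passed and 3 had an unadjusted p under 0.05, and with array set as a block 1, CD79A, fell. The part of either list in the RGS differences was not tested.

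RGS10, a short RGS protein that acts on the G alpha i family, was higher in LPS cells by its brightest probe set. That probe set read 9.85, 9.74 and 9.70 in the controls and 10.15 in LPS 1 and 9.90 in LPS 2, with LPS 3 between them. All LPS values lay above all control values, by 0.05 at the nearest pair, and the difference was 0.26 (SE 0.095). The other RGS10 probe sets, at control levels of 7.13 and 6.49, overlapped between the groups and differed by 0.05 (SE 0.064) and -0.02 (SE 0.068). The probe sets of this gene thus did not give the same reading, and the mean over all 3 was 0.09.

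RGS16, which acts on G alpha i and G alpha q, overlapped between the groups on all of its probe sets. The brightest read 8.02, 7.79 and 7.77 in the controls and 8.09, 8.05 and 8.01 in the LPS arrays, a difference of 0.19 (SE 0.082). Control 1 reached the LPS values, and within set A the difference was 0.05 against 0.23 in set B. The next brightest read 8.28, 7.54 and 7.69 in the controls and 8.20, 8.09 and 7.72 in the LPS arrays. It followed the array sets rather than the treatment: the 3 arrays of set A read 8.09 to 8.28 and those of set B 7.54 to 7.72. Its difference was 0.16 (SE 0.16) over all arrays, and -0.14 and 0.10 within sets A and B. The dimmest, at 6.06 in controls, differed by -0.01.

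RGS19, also called GAIP for its binding to a G alpha i subunit, read 8.90, 8.69 and 8.74 in the controls and 8.90, 8.78 and 8.59 in the LPS arrays. The groups overlapped fully, with a difference of -0.02 (SE 0.096). Without control 1 it was 0.04 and without LPS 3 0.06, so its sign is not settled.

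GNA13, the G alpha 13 subunit itself, was above control in LPS cells on each of its 3 probe sets. The brightest read 11.99, 12.06 and 12.08 in the controls and 12.18, 12.09 and 12.21 in the LPS arrays, without overlap and with 0.0055 between the nearest pair. Its difference was 0.12 (SE 0.091), and 0.15 and 0.14 within sets A and B. The next read 9.10, 8.97 and 9.02 against 9.33, 9.15 and 9.05, a difference of 0.15 (SE 0.092) with overlap. The dimmest read 8.67, 8.21 and 8.27 against 8.96, 8.82 and 8.30, and its 3 high arrays are those of set A. Its difference of 0.31 (SE 0.15) became 0.22 in set A and 0.06 in set B alone, and ran from 0.18 without LPS 1 to 0.51 without LPS 3.

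S1PR2, the sphingosine 1-phosphate receptor that couples to G alpha 13, read 8.28, 8.02 and 8.07 in the controls and 7.95, 8.06 and 7.93 in the LPS arrays by its brightest probe set. LPS 2 lay among the controls, and control 1 was the highest array. The difference was -0.14 (SE 0.084), and -0.07 without control 1. The other S1PR2 probe set, at 6.56 in controls and close to the array medians, differed by -0.08 (SE 0.066).

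Over all 20 member probe sets 13 differences were below 0 and 7 above, with a median of -0.02, beside 0.0029 over all probe sets. The groups did not overlap in 3 of the 20, RGS18 lower and the brightest RGS10 and GNA13 probe sets higher, where 13.4% of all probe sets did not overlap. These are also 3 of the 9 genes by brightest probe set, beside 15.7% of all genes.

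**Figure D2:**
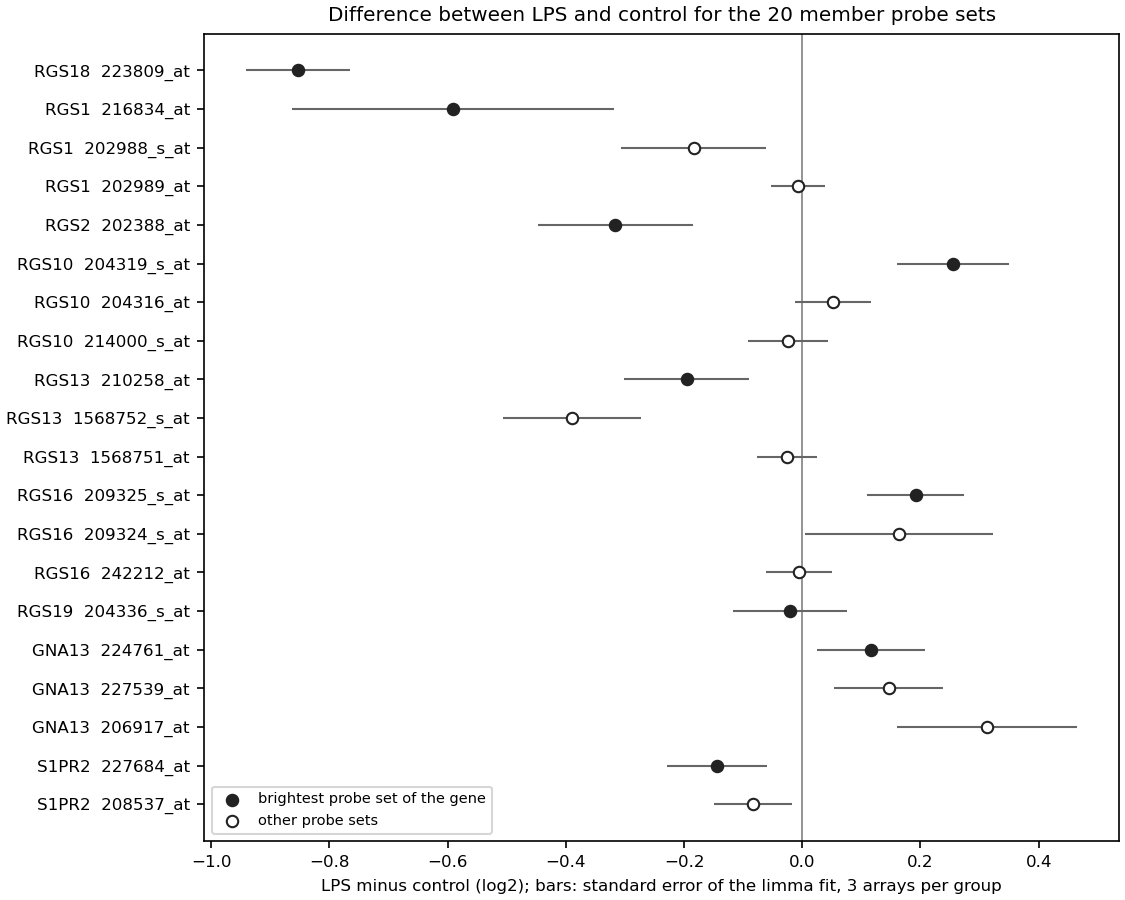
Difference between LPS and control cells (log2, horizontal axis) of the 20 member probe sets with the standard error of the limma fit (3 arrays per group); filled points are each gene's brightest probe set. RGS18 lies at -0.85, RGS1 spans -0.59 to -0.01 over its probe sets, and the GNA13 probe sets lie between 0.12 and 0.31.

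**Figure D3:**
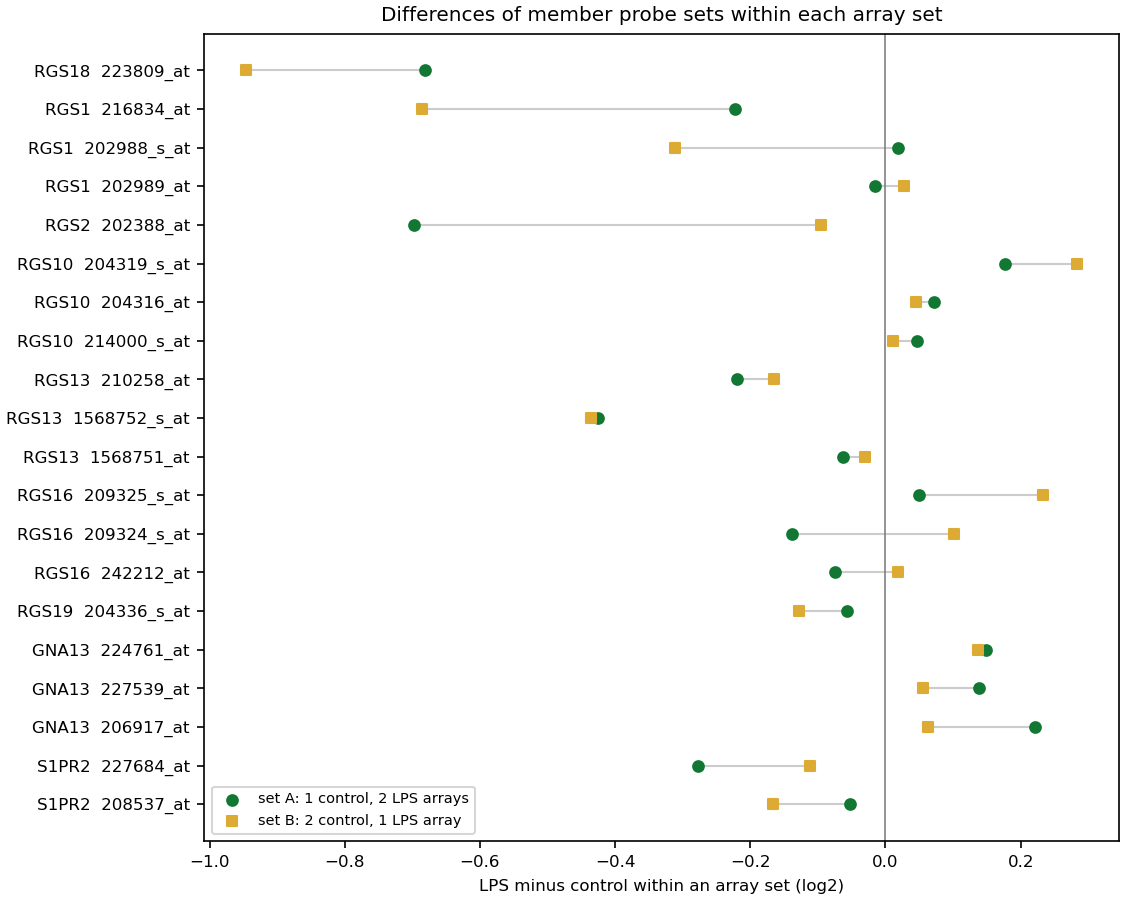
Difference between LPS and control cells (log2, horizontal axis) of each member probe set within array set A (1 control and 2 LPS arrays, circles) and set B (2 control arrays and 1 LPS array, squares). RGS18 reads -0.68 and -0.95, and RGS2 -0.70 and -0.10.

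The genes whose brightest probe set ran closest to that of RGS18 over the 6 arrays were TMT1A, CAB39L, CCNG2, ENPP3 and KDM3A. Closeness was the root mean square distance between deviations from each gene's own mean, which was 0.095, 0.097, 0.11, 0.13 and 0.13 in that order, with a median of 0.44 over the 19774 genes compared. TMT1A, a thiol methyltransferase, read 9.83, 10.10 and 10.10 in the controls and 9.09, 9.20 and 9.34 in the LPS arrays. CAB39L, a homologue of an LKB1 scaffold protein, read 9.30, 9.40 and 9.24 against 8.46, 8.47 and 8.60. CCNG2, an atypical cyclin, ENPP3, an ectonucleotide pyrophosphatase, and KDM3A, a histone demethylase, differed by -0.70, -0.61 and -0.69. Control 2 was the highest array in all 5 genes, as in RGS18, though in TMT1A it stood level with control 3 at 2 decimals. With 2 groups of 3 arrays, nearness to RGS18 largely means a like difference between the groups, so it is a description of these arrays.

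**Figure D4:**
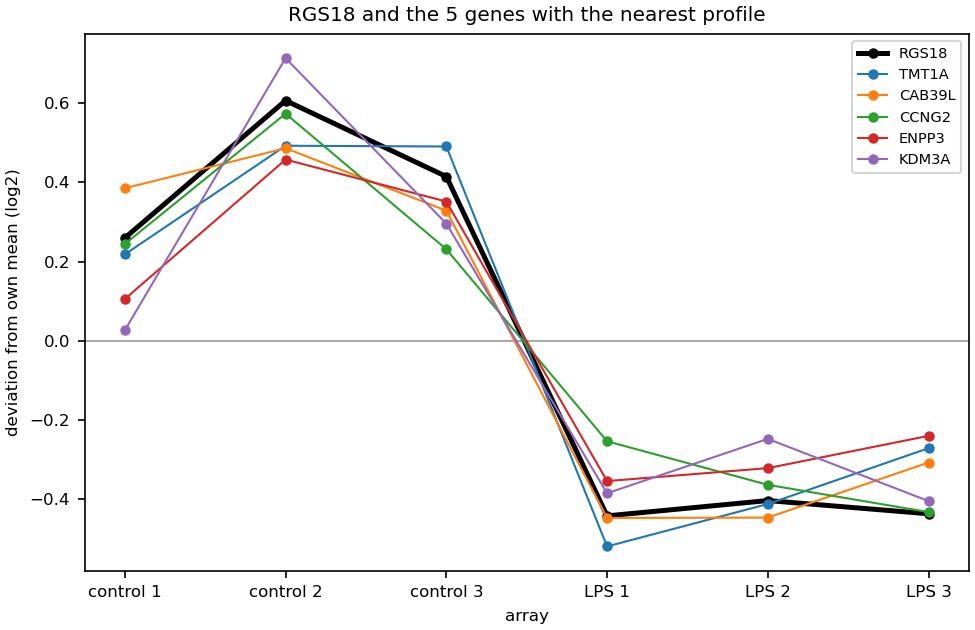
Deviation of each gene's brightest probe set from its own mean over the 6 arrays (log2, vertical axis) for RGS18 (thick black line) and the 5 genes with the nearest profile; lines only join the points of a gene. All 6 genes lie above their mean on the 3 control arrays and below it on the 3 LPS arrays.

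The other genes of G protein signalling and of confinement were taken from 6 lists with 78 genes, of which 73 were measured. By limma 1 of the 73 rose and 0 fell, beside 0.389% of all genes, and 9 (12.3%) had an unadjusted p under 0.05, beside 9.56% of all genes. Their median difference was -0.0026, beside 0.0016 over all genes. The gene that rose was SGPP2, a phosphatase that breaks down sphingosine 1-phosphate, the ligand of S1PR2. It read 6.88, 7.06 and 6.91 in the controls and 7.33, 7.45 and 7.32 in the LPS arrays, without overlap. The difference was 0.42 (SE 0.071, limma adjusted p = 0.0262), with 0.51 within set A and 0.34 within set B. The other SGPP2 probe sets differed by 0.28 (limma adjusted p = 0.0756) and 0.18 (limma adjusted p = 0.545). The call was lost without control 3, LPS 1 or LPS 2, with limma adjusted p of 0.202, 0.102 and 0.201 at differences of 0.40, 0.44 and 0.38.

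The remaining S1P genes held 0 calls of 9, where 0.389% of all genes were called. SPNS1, a relative of the S1P exporter SPNS2, differed by 0.23 (limma adjusted p = 0.269), and SPNS2 by -0.07.

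The other RGS proteins held 0 calls of 13, beside 0.389% of all genes, with differences from -0.25 to 0.13. RGS3 gave -0.25 (limma adjusted p = 0.439), with -0.01 within set A but -0.44 within set B. RGS14 gave -0.11 (limma adjusted p = 0.716). Their control levels ran from 6.04 to 7.13.

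Among the G alpha subunits 0 of 12 were called, beside 0.389% of all genes. GNAZ, a Gi-family subunit, read 7.74, 7.60 and 7.73 in the controls and 8.13, 8.10 and 7.84 in the LPS arrays, a difference of 0.33 (SE 0.088, limma adjusted p = 0.197). GNA12, the closest relative of GNA13, gave 0.16 (limma adjusted p = 0.668). GNAI2, the main Gi subunit of lymphocytes, gave 0.13 with an interval from -0.31 to 0.56. This wide interval goes with the array sets: set A read 9.10 to 9.51 and set B 8.53 to 8.71.

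Of the beta and gamma subunits 0 of 14 were called, beside 0.389% of all genes. The gamma subunits GNG2 and GNG7 gave -0.26 and -0.25 by their brightest probe sets, at limma adjusted p of 0.359 and 0.369. The groups did not overlap there, as in 15.7% of all genes. Their other probe sets differed by less, from -0.07 to -0.02 in GNG2 and from -0.06 to -0.02 in GNG7.

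The Gi-coupled migration receptors, whose signals RGS proteins shorten, held 0 calls of 14, where 0.389% of all genes were called. CXCR4 gave 0.01 (95% interval -0.19 to 0.21), CXCR5 -0.06, S1PR1 0.12 and GPR183 -0.08. Their control levels were 11.95, 7.88, 6.55 and 5.98 in that order. S1PR1 thus stood close to the array medians, and GPR183 cannot be told from background. The largest difference was that of GPR18 at -0.41, from 9.28, 9.23 and 8.94 in the controls to 8.74, 8.68 and 8.80 in the LPS arrays (limma adjusted p = 0.137). In the fit with a block for array set GPR18 fell (limma adjusted p = 0.0101), where 2.02% of all genes were called. CCR10 gave 0.24 at a control level of 6.26 (limma adjusted p = 0.159, and 0.0490 with that block). All CCR10 values lay between 6.19 and 6.55, close to the array medians.

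Receptor kinases, arrestins and G alpha chaperones held 0 calls of 10, beside 0.389% of all genes. GRK2, a receptor kinase with an RGS-like domain, gave -0.0020 (95% interval -0.18 to 0.17), GRK6 0.08 and GPSM3, which binds free G alpha i, -0.11. The other GRK2 probe sets gave 0.11 (SE 0.12) and 0.15 (SE 0.085).

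**Figure D5:**
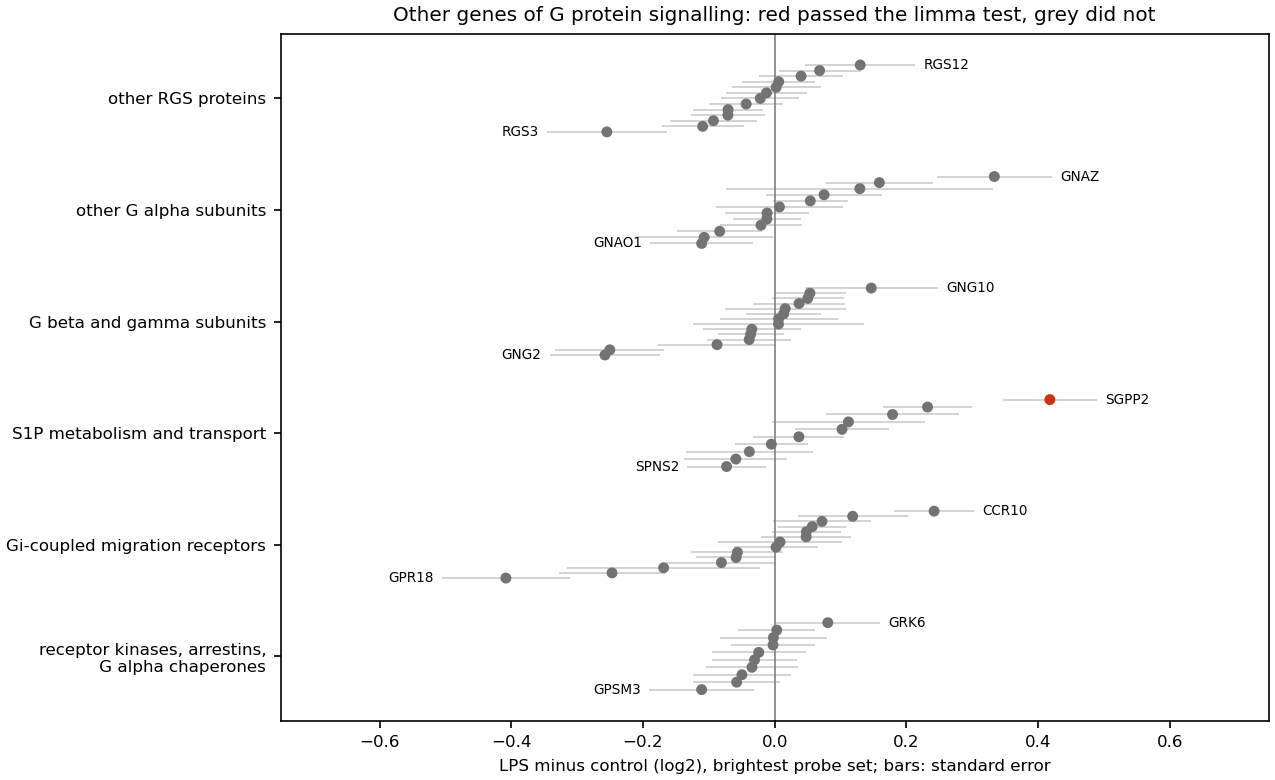
Difference between LPS and control cells (log2, horizontal axis) of the brightest probe set of 73 genes in 6 lists, with the standard error of the limma fit; the lowest and highest gene of each list are named. SGPP2, at 0.42, is the gene that passed the test (red).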

How the data were processed

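Column-purified RNA was labelled with biotin by in vitro transcription, per the labels' protocols. The authors deposited a value for each probe set on each array, taken as log2 from its range of 5.46 to 14.81. Their background correction, summary and normalisation: not given in the sources used here. Affymetrix's own 62 control probe sets were not tested. Of 54613 probe sets, 41091 had 1 gene symbol in the platform annotation. A gene was represented by its brightest probe set with 1 symbol.

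limma 3.58.1 in R 4.3.3 was fitted over all 6 arrays with group as its term and an intensity trend. Tests were two-sided, p-values were adjusted by Benjamini-Hochberg over all probe sets, and the threshold was 0.05. Array number limits the precision. A simulation of LPS against control used the means and spreads of the 54613 probe sets, with changes placed only in probe sets above the median level. Its noise was independent between probe sets and arrays, so the array sets were not modelled. In it 77% of 100 probe sets changed by 0.6 (log2) and 89% of 100 changed by 1 were recovered, and 11 unchanged ones were called. The array sets were parted at the widest gap, 0.22, in the mean of the hybridisation controls, the next widest gap being 0.081.

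The members, lists and alternatives were chosen with earlier results of these data known. 1 further list is not reported here. Named from the lists were genes that passed, the 2 with the smallest unadjusted p in each list, and GNAI2, CXCR4, CXCR5, S1PR1, GPR183 and GRK2. SPNS2, CD38, GCSAM, BCL6, CD79A, PAX5 and the platelet markers were named after their values were seen. Alternatives were a replicate or array set block, other normalisation, filters, variance prior, array weights, probe set choice and threshold, and leaving out each array.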

Additional observations from a re-analysis of the deposited data

How the results depend on the processing

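RGS18 was the called member, and the only one by brightest probe set, under all 16 alternatives, and the count of member genes called stayed at 1. RGS18 was chosen with its fall on these same arrays known, so this describes the call and adds no support for it. Member differences that moved by more than the spread between replicates were those of RGS10 and RGS16 without _x_at and _s_at probe sets (0.05 and -0.01), and RGS10 and GNA13 as the mean over probe sets (0.09 and 0.19). RGS1 and RGS2, with wide spreads between the controls, did not count as moved by this measure. RGS1 still went from -0.59 to -0.10 without control 2 and to -0.26 as the mean over probe sets. RGS2 went from -0.32 to -0.14 without control 1. The 73 pathway genes gave 1 call, 2 with a replicate block and 3 with array set as a block. Of all genes 0.389% were called without a block, 1.37% with a replicate block and 2.02% with array set as a block. When an array was left out the pathway genes gave 0 to 1 call. The 144 probe sets called became 498 with a replicate block, 734 with array set as a block, 292 with quantile normalisation, 309 with array weights, 82 without _x_at and _s_at probe sets and 265 at a threshold of 0.1. Without single arrays they ran from 10 (without LPS 2) to 374 (without control 1), with 46 without control 2, 14 without control 3 and 44 without LPS 1. The replicate numbers are not known to pair the samples: deviations of same-numbered arrays correlated at 0.44, -0.04 and 0.23 over probe sets. With the replicate block GPR18 was called beside SGPP2, where 1.37% of all genes were called. Probe sets near 6 on the log2 scale are limited by background.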

Other observations

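Among the 19775 genes by brightest probe set, RGS1 ranked 2 for its SD over the 3 controls (0.85), and RGS2 ranked 134 (0.31). RGS18 ranked 1390 (0.17). RGS1 was also the 1 gene whose value on control 2 exceeded every other array by more than 1 on the log2 scale, with a gap of 1.41. The next largest gaps on control 2 were 0.66 in HILPDA, a lipid droplet protein, 0.57 in DDIT4, an inhibitor of mTORC1 signalling, 0.55 in BNIP3, a mitophagy receptor, and 0.46 in ALDOC, a glycolytic aldolase. KDM3A, one of the genes nearest to RGS18 in profile, ranked 11 in this list with a gap of 0.42. These genes and this ranking were chosen after the RGS1 values were seen.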
